A study of Mus musculus with 12 samples.

Results

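The cytoplasmic ribosomal protein genes encode the proteins of the large and small subunits of the ribosome. They were taken as all protein-coding mouse genes whose symbol is Rpl or Rps followed by a number, with an optional suffix of a, l, x or y, together with Rplp0, Rplp1, Rplp2, Rpsa and Fau. Kinases and other genes that only share the prefix, pseudogenes and mitochondrial ribosomal proteins were left out. The rule gave 83 of 21883 protein-coding genes, 51 for the large subunit and 32 for the small subunit. It used names alone and no measured value.

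The study mapped where ESRP1, an epithelial regulator of splicing, touched RNA in the epidermis of mouse pups on postnatal day 1. Each of the 12 libraries came from Esrp1FLAG/FLAG animals, in which both alleles of the endogenous gene carry the tag. Of these, 6 were immunoprecipitated with a FLAG antibody and 6 were inputs without antibody, from tissue crosslinked with ultraviolet light and cut from the membrane between 75 and 140 kDa. The method was eCLIP, in which reverse transcription often stops at the crosslinked base. An immunoprecipitation from untagged animals was not analysed here.

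The deposited data used here were 3 lists of single-nucleotide crosslink sites, each the authors' call on a pool of 2 replicates against input. List 1 (replicates 1 and 2) held 73602 sites, list 2 (replicates 3 and 4) held 40014 and list 3 (replicates 5 and 6) held 53864. Read depth is unknown, and the spread between the 2 replicates inside a list cannot be seen. Among the keratinocyte markers, 6 of 10 had a region in all 3 lists, against 17.0% of all protein-coding genes, although Krt14 and Krt1 had no site. None of the 6 fibroblast, 4 immune, 3 endothelial or 4 melanocyte markers had such a region, and 2 of the fibroblast and 2 of the melanocyte markers had a site. With so few markers, a count of 0 in any group taken alone is near what a share of 17.0% gives. The groups were not tested together.

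Ribosomal protein mRNAs are among the most abundant in growing cells, and their translation is switched as a group through a run of pyrimidines at the start of the transcript. Many of these genes carry small nucleolar RNAs in their introns, and they have left a large number of processed copies in the genome. ESRP1 and its paralog ESRP2 bind GU-rich sequence near alternative exons and direct epithelial splicing. The lists hold no RNA levels, so more contact per molecule and more RNA cannot be told apart in any count given here.

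Sequence around sites was read from the RefSeq table of transcript starts for GRCm38.p6, the build of the sites, which covered 63 of the 83 genes from 250 nt before to 50 nt after each start. The 5 windows below are shown because they come from the 5 ribosomal protein genes whose sites could be read from that table. Each is printed 5′ to 3′ on the transcript strand, with the bases that held a site in 2 or more lists in capitals.
Rpl37a, chr1:72711282-72711309, plus strand, nt 23 to 50 of the gene: gtcccttcctcttcggacTTGGgcTTgg
Rpl13a, chr7:45128696-45128723, minus strand, nt 23 to 50: ctgccgaagatggcgGaGGggcaggttc
Rpl34, chr3:130730319-130730346, minus strand, nt 53 to 80: ttttcctcttccGGGgacggtgctcaga
Rpl35a, chr16:33056491-33056518, plus strand, nt 39 to 66: ccatcttggcgcctGtggaggtgagggg
Rps28, chr17:33824326-33824353, minus strand, nt 210 to 237: cctgtaGGTaaccaaagtgctGggcagg
The Rpl37a window had 6 capital bases, of which 4 held a site in all 3 lists. Rps28 had 4, of which 2 were in all 3 lists, and Rpl13a had 3, of which 1 was. None of the capitals of Rpl34 and Rpl35a was in all 3 lists.

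The sites in these windows fell mostly on G. Over all 21 positions of ribosomal protein genes that the table could read, which lie in only 5 genes, the base at the site was G at 14 (66.7%), T at 5 (23.8%), C at 2 and A at 0. Over the 1870 other positions that the table could read it was G at 77.2%, T at 18.8%, C at 2.62% and A at 1.44%. Those could lie before a start and on either strand, unlike the positions in the ribosomal protein genes, so the sets are not matched. The first 50 nt after the starts of protein-coding genes held 32.2% G. A search for TGG or GGT on the transcript strand within 10 nt of the site found either motif, which can overlap as TGGT, at 18 of the 21 positions (85.7%). Either was found, on the strand of the site, at 85.6% of the other positions. Of the windows of 21 nt within the first 50 nt after the starts of protein-coding genes, 48.5% held either motif. The positions were read from the longer stretch that the table covers, so these windows are not matched to them in place. The share with either motif was thus nearly the same at the positions in ribosomal protein genes and at the other positions. Counted separately, TGG was found at 12 of the 21 positions (57.1%) against 73.3% of the other positions. GGT was found at 15 (71.4%) against 72.5%. A match describes letters only.

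A region was a run of sites, from any list, with gaps of at most 10 nt on one strand, and was called present in all 3 lists when it held sites of each. Of the 83 genes, 31 had such a region (37.3%, 95% Clopper-Pearson interval 27.0 to 48.7%). Over all protein-coding genes the share was 17.0%. Ribosomal protein genes are short, 3164 nt in the median where all protein-coding genes have 17170 nt, and among the 8613 genes within the same range of span lengths the share was 8.58%. A site in any list was present in 51 of the 83 (61.4%, 50.1 to 71.9%), against 34.8% of all protein-coding genes and 18.9% of those within the span lengths. Intervals cover counting error only.

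Among genes that had a site at all, the ribosomal protein genes stood closer to the rest. A region in all 3 lists was present in 31 of the 51 (60.8%, 46.1 to 74.2%), against 48.8% of all protein-coding genes with a site, a share inside that interval. Within the span lengths the share was 45.4%, below the interval. The number of sites per kb of span, summed over lists, had a median of 2.89 over the 51 genes and of 1.36 over the 1628 genes with a site within the same range of span lengths. The spans were alike only in range, with medians of 3572 and 6000.5 nt, so the densities compare sets of unlike length.

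The genes held 285 of the sites of list 1 (0.387%), 158 of list 2 (0.395%) and 291 of list 3 (0.540%), with a mean of 0.441 ± 0.0862% (SD, n = 3 lists). Their spans make up 0.0282% of the span of protein-coding genes. Sites fell on the same nucleotide in all 3 lists at 91 positions. Such positions took 31.9, 57.6 and 31.3% of the genes' sites in lists 1, 2 and 3, against 19.8, 36.4 and 27.1% of all sites. The share was higher in the ribosomal protein genes in each of the 3 lists. Each list was divided into the same 91 positions, or the same 14582 among all sites, so these are not 3 independent comparisons. The means were 40.3 ± 15.0% and 27.8 ± 8.34% (SD, n = 3 lists). These SDs follow the number of sites in each list and do not measure how far the shared positions vary.

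Scores have no stated scale and were read as percentiles within a list. The median site of the ribosomal protein genes stood at the 75.9th, 62.4th and 70.0th percentile of lists 1, 2 and 3. Of their sites, 57 of 285, 25 of 158 and 50 of 291 were among the highest-scoring 10% of lists 1, 2 and 3. The genes with a site had 139 regions, of which 52 were in all 3 lists (37.4%, 29.4 to 46.0%), against 21.1% of all 45738 regions. Of the remainder, 32 were in 2 lists and 55 in 1.

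**Figure D1:**
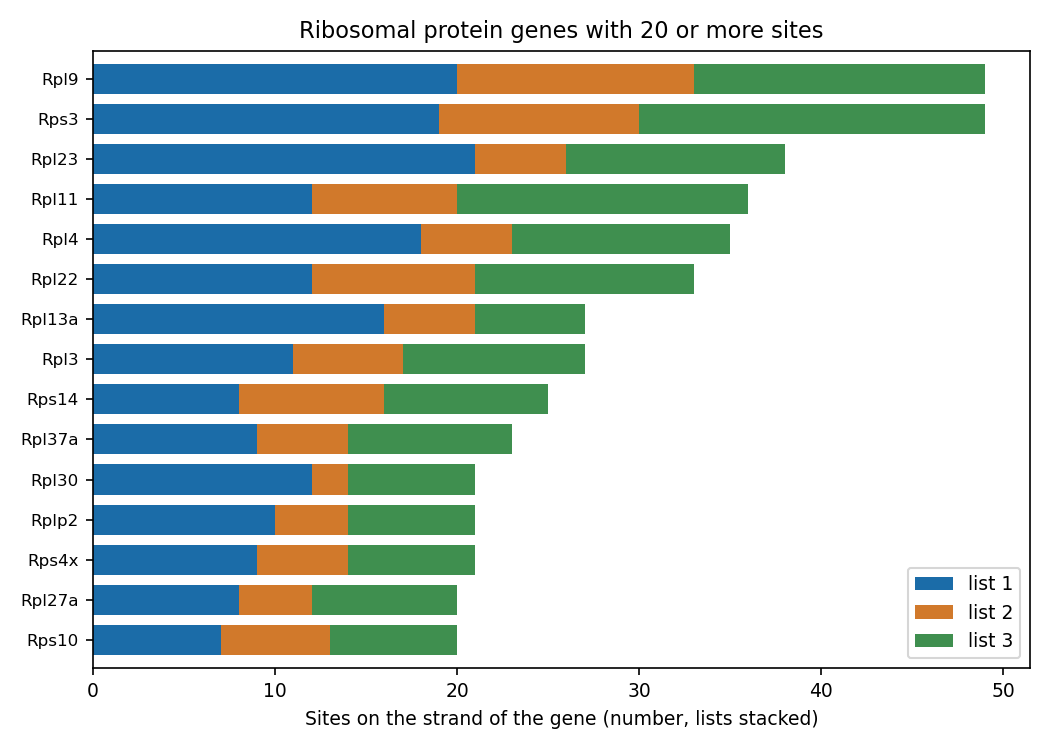
Number of sites per ribosomal protein gene (horizontal axis) on the strand of the gene, with the 3 lists stacked, for the 15 genes with 20 or more sites. Rpl9 and Rps3 lead with 49 sites each, and each of the 15 has sites in all 3 lists.

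Among the 51 large subunit genes 17 had a region in all 3 lists (33.3%, 20.8 to 47.9%), and in the small subunit 14 of 32 (43.8%, 26.4 to 62.3%). The intervals overlap widely. The large subunit genes held 186, 99 and 179 sites in lists 1, 2 and 3, and the small subunit genes 99, 59 and 112.

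Rpl9, a large subunit protein, had 20, 13 and 16 sites in lists 1, 2 and 3 and 4 regions in all 3 lists. With 49 sites in 3068 nt it carried 16.0 sites per kb, and all 3 lists were high. Its highest-scoring region, chr5:65388395-65388401 on the minus strand, lay 31 nt from the 3′ end of the gene, with best scores of 112.133, 113.675 and 118.025. Another of the 4 regions, a single base at chr5:65390451, had best scores of only 0.919, 1.55 and 1.46, at a mean percentile of 6.99.

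Rpl23, whose protein also binds the p53 regulator Mdm2 when ribosome assembly is disturbed, had 21, 5 and 12 sites and 3 regions. List 2 was low here and list 1 high. One region, chr11:97781381-97781395 on the minus strand, stood at a mean percentile of 98.5, with best scores of 181.47, 134.523 and 217.055. Rpl11, another ribosomal protein that binds Mdm2, had 12, 8 and 16 sites and 3 regions, the best at chr4:136050384-136050391 on the minus strand.

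Rpl4, a core protein that lines part of the exit tunnel, had 18, 5 and 12 sites and 3 regions spread from 1872 nt after its 5′ end to 177 nt before its 3′ end. Rpl22 had 12, 9 and 12 sites, with regions at 8243 and 8775 nt from the 5′ end in a span of 9647 nt. Both regions thus lay in the 3′ part of the gene, and sites of single lists lay on both sides of them.

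Rpl3, which reaches close to the peptidyl transferase centre, had 11, 6 and 10 sites and 2 regions. Rpl13a had 16, 5 and 6 sites and Rpl30 12, 2 and 7, with 2 regions each. In both genes list 1 held more than the other lists together. Rpl27a had 8, 4 and 8 sites in 1 region, chr7:109521696-109521706 on the plus strand, at a mean percentile of 96.4.

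The stalk proteins Rplp0, Rplp1 and Rplp2 recruit the elongation factors to the large subunit. Rplp2 had 10, 4 and 7 sites in 2 regions, and Rplp0 had 6, 4 and 5 sites with 1 region. Rplp1 had no site in any list.

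In the small subunit Rps3, which lies at the mRNA entry channel, had 19, 11 and 19 sites and 4 regions. Of these, chr7:99479995-99480006 on the minus strand had best scores of 129.349, 63.1059 and 121.08. Lists 1 and 3 were alike and list 2 lower, as over all 83 genes (285, 158 and 291 sites).

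Rps27a, made as a fusion with ubiquitin, had the region with the highest mean percentile (98.7). It is 3 nt wide, at chr11:29545971-29545973 on the minus strand, and each list held a site on all 3 of its bases, with best scores of 184.565, 163.336 and 201.347. The gene had 5, 6 and 8 sites. Rps14 had 8, 8 and 9 sites and 1 region, 63 nt from its 5′ end, at a mean percentile of 95.8.

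Rps4x, the X-linked gene of its protein, had 9, 5 and 7 sites in 2 regions. Rps28 had 7, 3 and 5 sites and 2 regions in all 3 lists. Rps28 lost both regions when only the higher-scoring 50% of each list was kept. Rps24, whose transcript has small alternatively spliced exons near its 3′ end, had 8, 2 and 6 sites in 1 region of 29 nt, the longest found in all 3 lists. That region, chr14:24495784-24495812 on the plus strand, lay 1148 nt from the 3′ end. Whether any region lies in an exon or an intron was not analysed here, since the annotation used gives gene ends only.

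Apart from Rpl37a and Rps10, described with the gene ends, the other 12 genes with a region in all 3 lists had from 5 to 19 sites. Rps9, at the top of that range, had 7, 2 and 10, and Rps26, at the bottom, had 2, 1 and 2.

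A further 20 genes had sites but no region in all 3 lists. Of these, 4 had sites in list 1 alone, 2 in list 2 alone (Rpl6, Rps27), 5 in list 3 alone (Rpl7, Rpl18, Rps19, Rps23, Rpsa) and 8 in 2 lists. Rpl31 had 1 site in each list, but at places that did not form a region of all 3.

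The remaining 32 genes had no site. The longest were Rpl19 with a span of 8491 nt, Rpl3l with 8318, Rpl24 with 5163, Rps27l with 4899 and Rpl39l with 4715. The median span of the 32 was 2606.5 nt, against 3668 nt for the 31 with a region in all 3 lists. Genes without a site were thus shorter in the median, and long ones were among them.

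The genes with the suffix l are paralogs of the main genes. None of the 6 (Rpl3l, Rpl10l, Rpl32l, Rpl36al, Rpl39l and Rps27l) had a site, with an interval of 0 to 45.9% that holds the 18.9% of protein-coding genes within the span lengths. Among their main genes, Rpl3 had the 11, 6 and 10 sites given above, Rps27 had 0, 4 and 0 and Rpl32 had 0, 1 and 1. Rpl10, Rpl36a and Rpl39 had none.

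**Figure D2:**
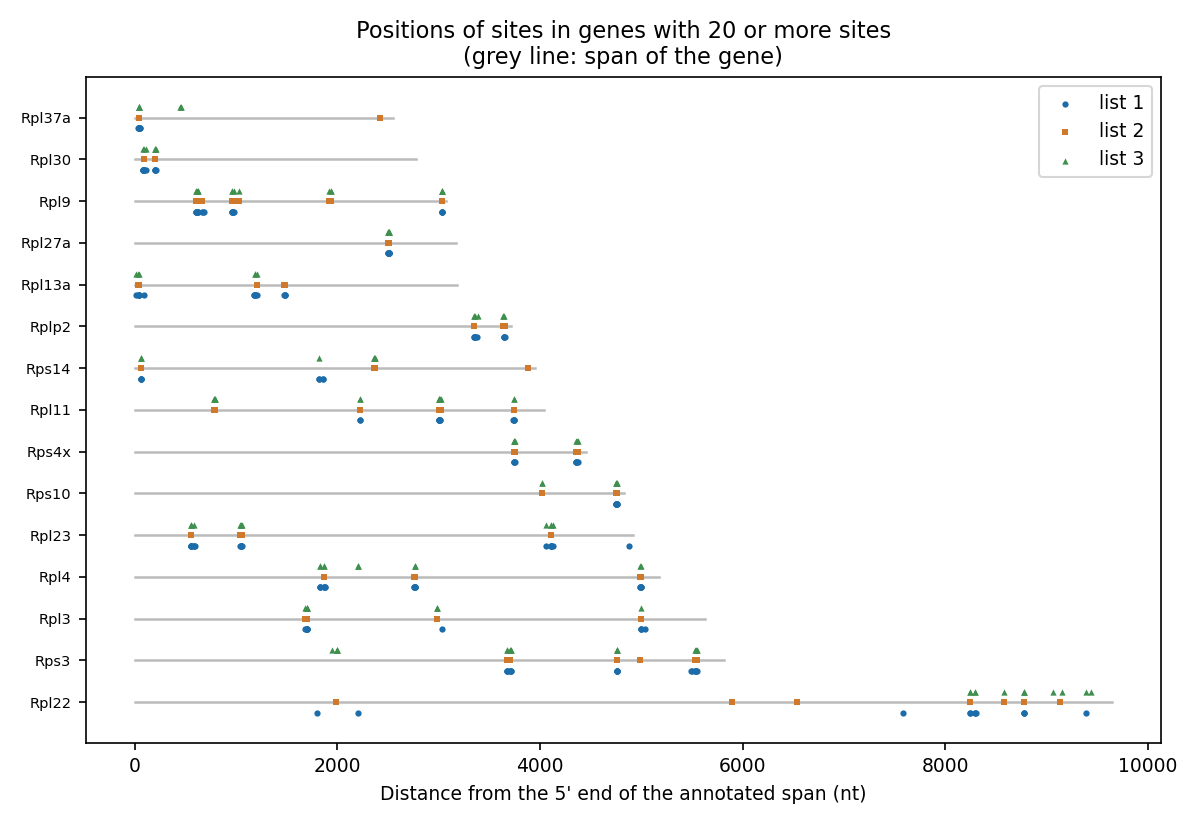
Position of each site, in nt from the 5′ end of the annotated gene, for the 15 genes with 20 or more sites; each gene is a grey line as long as its span, with list 1, 2 and 3 offset vertically. Rpl13a, Rpl30, Rpl37a and Rps14 have sites of all 3 lists near the 5′ end, and Rpl9, Rplp2, Rps10 and Rps4x near the 3′ end.

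Sites lay along the whole length of the genes. Of the 52 regions in all 3 lists, 30 (57.7%) were in the 3′ part beyond the middle of the span, and they lay a median of 1969.5 nt from the 5′ end and 1355.5 nt from the 3′ end. The share of sites within 100 nt of the 5′ end was 9.12, 10.1 and 9.97% in lists 1, 2 and 3, with a mean of 9.74 ± 0.539% (SD, n = 3 lists). Other genes within the same range of span lengths had 6.09 ± 0.680%. A window of 100 nt covers more of the shorter ribosomal protein genes, 2.78% of the span weighted by sites, against 2.15% in the other genes.

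With the span cut into 10 equal parts the order at the 5′ end turned. The first part held 12.3, 13.3 and 13.4% of the sites in ribosomal protein genes in lists 1, 2 and 3, and 14.3, 17.9 and 16.9% in the others. The means were 13.0 ± 0.618% and 16.4 ± 1.83% (SD, n = 3 lists), so whether the ribosomal protein genes had more or fewer sites at the 5′ end depended on how the end was measured. The second part held 12.2 ± 3.10% in the ribosomal protein genes and 4.83 ± 0.659% in the others, and the last part 21.7 ± 5.74% and 25.1 ± 2.45%, within the spread.

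Within 100 nt of the 3′ end the shares were 7.72, 13.3 and 6.53%, with a mean of 9.18 ± 3.61% against 5.79 ± 0.268% in the other genes. List 2 was high, and the difference was smaller than the spread between lists.

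**Figure D3:**
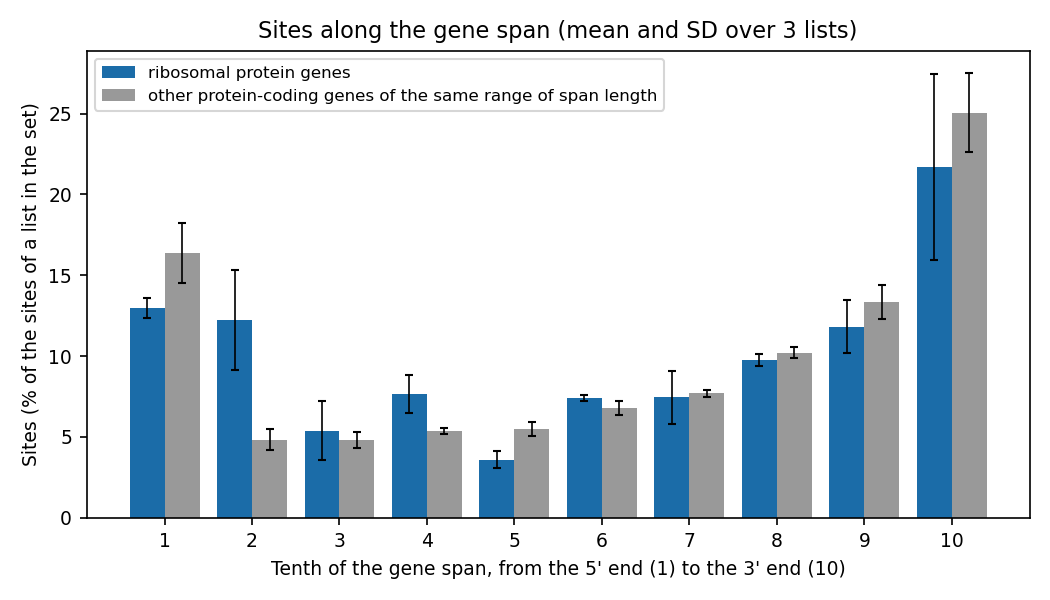
Share of sites (vertical axis, % of the sites of a list in each set) in 10 equal parts of the gene span from the 5′ end, for ribosomal protein genes and for 1577 other genes with a site within the same range of span lengths; bars are means and whiskers SDs over the 3 lists. The first part is lower in the ribosomal protein genes, 13.0% against 16.4%, the second is higher, 12.2% against 4.83%, and the last part is the highest in both.

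Of 7 genes with a site within 100 nt of the 5′ end, 4 had one on the same nucleotide in all 3 lists. The region of Rpl37a began 36 nt from the end, that of Rpl13a 37 nt, that of Rps14 63 nt and that of Rpl30 77 nt. Rpl37a had 9, 5 and 9 sites in all, and its region stood at a mean percentile of 93.8.

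At the 3′ end the 4 such genes were Rpl9 at 31 nt, Rplp2 at 55 nt, Rps10 at 68 nt and Rps4x at 77 nt. Rps10, a gene mutated in some families with Diamond-Blackfan anaemia, had 7, 6 and 7 sites, 16 of these 20 in its region at chr17:27630483-27630495 on the minus strand. The distances were measured to the outermost annotated ends, and for Rps14 and Rpl30 the strand was that with most sites, because the table of starts did not hold them.

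The pyrimidine run at the transcript start was looked for as C followed by 4 further C or T. It began at an annotated start in 15 of the 63 ribosomal protein genes in the table (23.8%), against 2.67% of 17491 protein-coding genes. Within 3 nt of a start it was found in 26 (41.3%), against 13.2%. A region in all 3 lists was present in 11 of those 26 genes and in 14 of the 37 without the run. The match describes letters and depends on how exactly the starts are annotated.

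Nearly all sites lay on the strand of the gene. In the 63 genes with a strand in the table, 590 sites lay on the gene's strand and 11 on the opposite strand, and all 11 were in Rplp0. All 40 of these genes that had a site had most of their sites on the annotated strand.

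Small nucleolar RNAs guide chemical modification of ribosomal RNA, and 58 of their genes lay inside 29 of the ribosomal protein genes. None of the 321 sites in these hosts fell inside one. An upper limit taken as 3 divided by the number of sites was 0.935%, which counts sites as independent. Sites lay in runs and recurred between lists, so that limit is too low. The small nucleolar RNA genes make up 5.33% of the hosts' span. The nearest site was 71 nt away, from Snord16a in Rpl4. Of the 29 hosts, 12 had a region in all 3 lists, and of the other 54 genes 19 did. Over the whole series, 3 of 1340 small nucleolar RNA genes had a site.

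Processed copies of ribosomal protein genes are spread through the genome, and a short read from the mRNA can align to several of them. The annotation names 318 copies after 62 of the genes, with a median span of 528 nt. Of these copies 129 had a site and 65 had a region in all 3 lists (20.4%), against 6.79% of 9635 other annotated pseudogenes. Rps7-ps3 lies inside Rpl7a-ps12 and shares all 19 of its sites, and with that pair counted once 64 copies had such a region. The copies held 525, 297 and 576 different sites in lists 1, 2 and 3, more in each list than the genes themselves. The treatment of reads with several alignments is not stated, and its part in the counts was not tested.

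**Figure D4:**
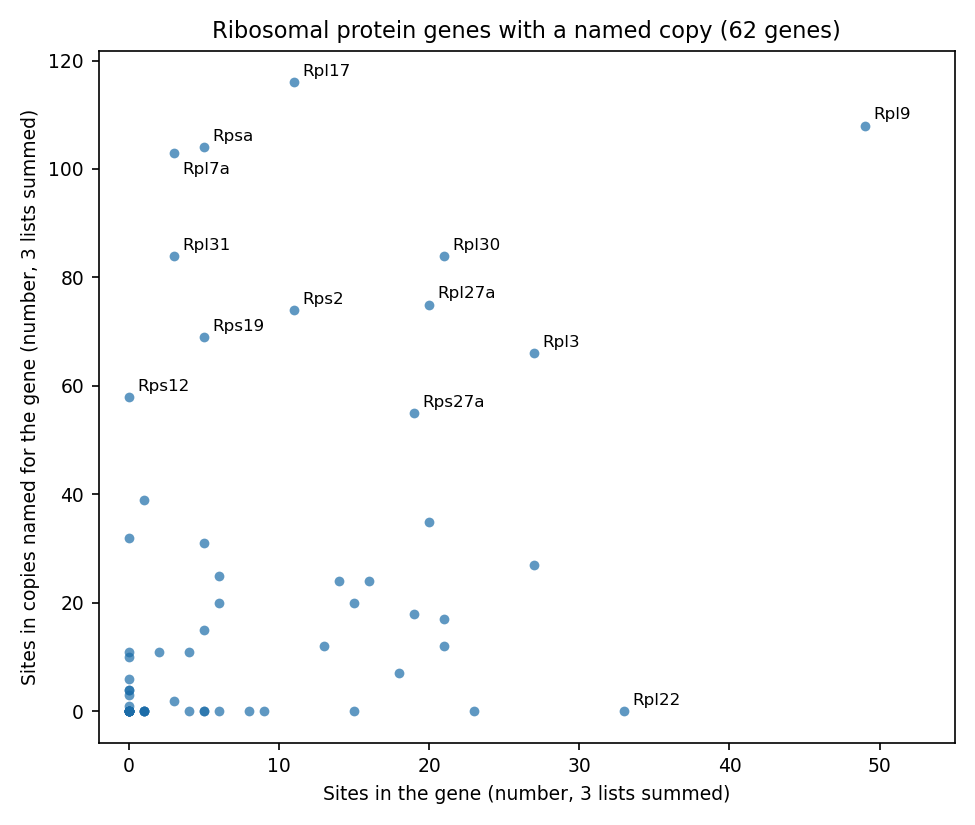
Sites in each ribosomal protein gene (horizontal axis, 3 lists summed) and in the copies named after it (vertical axis, 3 lists summed), for the 62 genes with a named copy. Rpl17, Rpl7a and Rpsa lie at the upper left with far more sites in their copies, while Rpl22 has sites in the gene and none in a named copy.

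The balance between gene and copies differed from gene to gene. Rpl17 had 7, 0 and 4 sites in the gene and 50, 24 and 42 in its copies. Rpl7a had 0, 1 and 2 against 34, 23 and 46, of which 7, 5 and 7 are those shared with Rps7-ps3, and Rpsa had 0, 0 and 5 against 33, 25 and 46. For these genes a count over the gene alone leaves out most of the sites that carry its name. Rps12, which had no site, had 2, 12 and 44 in its copies, and 9 of the 32 genes without a site had a copy that held one. None of those 9 had a copy with a region in all 3 lists.

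Conversely, 14 of the 31 genes with a region in all 3 lists had no named copy with a site. These were Rpl4, Rpl8, Rpl11, Rpl12, Rpl15, Rpl22, Rpl23, Rpl37a, Rplp0, Rps3, Rps9, Rps14, Rps26 and Rps28, and 8 of them have no named copy. The other 17 had at least one. Copies that carry no gene's name were not counted.

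Sites in some copies repeated the spacing of sites in their gene. Of the 52 regions, 32 had enough sites to compare (at least 4 positions and 8 sites), and a match needed 80% of the sites at the same spacing in the same lists. The gene of 20 of these 32 had a named copy with a site. Among these 20 regions, 10 were found again in at least 1 copy of the same gene. By pairs of region and copy this was 16 of 57 (28.1%), and 19 of 2523 (0.753%) for copies of another ribosomal protein gene. Over all 32 regions the latter was 38 of 4071 pairs (0.933%). Of these, 18 came from the 1 region of Rps14, which is 4 nt wide, and 11 from the compared region of Rps15a. All 20 sites of the Rpl27a region recurred in Rpl27a-ps1 and in Rpl27a-ps4, and the 12 sites of the Rpl9 region nearest the 3′ end recurred in Rpl9-ps1, Rpl9-ps4 and Rpl9-ps6. Regions of 9 genes recurred in this way, among them Rpl3, Rplp2, Rps4x, Rps10 and Rps24 beside Rpl9 and Rpl27a. In 6 compared genes with a site in a copy none recurred in a copy of the same gene (Rpl13a, Rpl14, Rpl30, Rps2, Rps15a and Rps16). For the 9 genes the place of origin of the reads cannot be told apart between gene and copy, and for the others it was not tested.

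Other genes of translation and ribosome assembly were counted in the same way. Of 42 genes on that list 28 had a site and 19 a region in all 3 lists (45.2%), where all protein-coding genes gave 34.8% with a site and 17.0% with a region. Their median span was 12468.5 nt, longer than that of the ribosomal protein genes. Eef2, the elongation factor that moves the ribosome along the mRNA, had 40, 15 and 32 sites and 9 regions in all 3 lists. Eif4b, a cofactor of the initiation helicase, had 25, 17 and 23 sites and 4 such regions. Eif3h, a subunit of initiation factor eIF3, had 18, 10 and 19 sites and 3 regions. Tpt1 had 15, 8 and 12 sites and 3 regions. Eef1a1 had 8, 4 and 8, Eif4a2 10, 6 and 7 and Pabpc1 25, 4 and 9, with 2 regions each. Rack1, a protein of the small subunit that does not carry an Rps symbol, had no site, nor did the paralogs Rpl22l1 and Rpl7l1.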

How the data were processed

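The authors deposited 3 lists of sites 1 nt wide, each with a strand and a score of unstated scale. Per the file headers each list was called on 2 replicates with input. Tools listed in the submitters' processing notes, with no role given, are HISAT2 2.1.0, HOMER and cutadapt 1.16, and the listed builds are mm10 and GRCm38. Gene ends were those of RefSeq on GRCm38.p6. Strand came from the RefSeq start table for 63 genes and otherwise from the strand with most sites. Sites within 10 nt were joined, and a region belonged to a gene when its middle lay in its span (Python 3.11.15, pandas 2.3.3, scipy 1.17.1). The counting was tested on simulated data. No test between groups was made, since all libraries share 1 genotype and the lists pool replicates. The genes and lists were chosen with earlier results of these data known. Genes named in the text were the 12 holding the largest number of regions in all 3 lists, the 5 with the best mean score percentile, those with a site on the same nucleotide in all 3 lists within 100 nt of an end, the 5 longest without a site, pairs with the suffix l, Rpl22l1, Rpl7l1 and at most 10 translation genes by region count. Other names were chosen after their values were seen, and some genes are counted but not reported here by name. Alternatives were the join distance, the score cutoff, the strand, the end window, overlapping genes and each list left out.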

Additional observations from a re-analysis of the deposited data

Results flagged for a closer look

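Sites on the strand opposite to a gene were outside the counts above. Rplp0 had 11 such sites over the 3 lists, 4, 4 and 3 in lists 1, 2 and 3, just upstream of the region on its own strand. The other 62 genes of known strand had none.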

How the results depend on the processing

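The 31 genes that had a region in all 3 lists became 34, 33 and 32 without list 1, 2 and 3, when only 2 lists had to hold the region. These were 41.0, 39.8 and 38.6%, against 18.2, 20.8 and 21.0% of all protein-coding genes. With the higher-scoring 50% of each list the count was 23 (27.7%, against 12.1% of all protein-coding genes). With only genes without a named copy that holds a site, an alternative chosen after seeing the data, it was 14 of 45. With only genes of known strand, also chosen afterwards, it was 25 of 63. The 91 same-nucleotide positions became 106 to 165 with one list left out, the highest without list 2, since only 2 lists then had to share a base. With the higher-scoring 50% of sites, the median over all 83 genes went from 0.739 to 0.211 sites per kb, the small subunit had 9 genes with a region, list 2 held 100 sites, 5 sites lay under other genes, and the 5′ share was 12.0%. The 5′ share was 4.62% within 50 nt, 10.4% within 200 nt and 13.0% in the first 10% of the span, and the 3′ share was 2.33% within 50 nt and 21.7% in the last 10%, windows of other size. Of all 78 values of this kind 66 stayed within 1.5 times or the spread between lists. Some of these could not move, since paralogs without a site were added or left out, or the strand with most sites was the annotated one. For the 17 named genes with a region, 112 of 136 region counts stayed within 1.5 times and 24 did not, 11 of these with sites joined at 0 nt. Rpl9 went from 4 regions to 7 without list 1, and Rpl23 from 3 to 6 without list 2. No paired analysis was possible because each list pools 2 replicates and no column is an input. Depth is unknown, so a gene without a site may have had too few reads for a call.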

Other observations

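Ribosomal protein genes whose symbols the naming rule does not take gave mixed counts. Rps3a1, a small subunit gene, had 9, 4 and 6 sites in lists 1, 2 and 3 and 2 regions in all 3 lists. Rpl37rt had 3 sites, all in list 3. Of 7 noncoding hosts of small nucleolar RNAs, 3 had a site, and Snhg8 alone among the 7 had a region in all 3 lists.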
